A study of Mus musculus with 9 samples.

Results

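Sike1 and the genes around it were read in RNA sequencing of the mouse ear dermis. They comprised Sike1, the chromosome 3 genes Nras, Ampd1, Dennd2c, Bcas2 and Trim33 that lie after it, and the kinases Tbk1 and Ikbke that its protein binds, which made 8 of the 52550 genes counted. The members were chosen by gene symbol, and the choice was made on measured values. Sike1 was taken because its level was low in the animals that received the herbal decoction, and its neighbours because single genes were known to stand at 1 of 2 levels among the libraries. The values of Sike1 in the decoction group, and the 2 levels of Sike1 and Nras, are therefore given as a description, with no p-value.

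The study asked what imiquimod, a cream that produces psoriasis-like inflammation, changes in the skin and what the Chinese herbal decoction Xiao-Yin-Fang (XYF) changes on top of it. All animals were C57BL/6 mice 8 weeks old, with no engineered allele named in the labels (their genotype is written "wide type"). The methods name male C57BL/6J mice. VAS+H2O mice had vaseline on the ear for 5 days. IMQ+H2O and IMQ+XYF mice had imiquimod cream on the ear for the same time. Gavage ran for 10 days in all 3 groups at 200 µl, with water in VAS+H2O and IMQ+H2O and with XYF at 23.3 mg/g in IMQ+XYF. No group received the decoction without imiquimod, so the groups cannot show what XYF does in skin that had vaseline. Each group held 3 libraries, made from dermal sheets of the ear. The methods speak of RNA from ear sheets of a pair of mice and do not say how these mice relate to the 3 libraries of a group. P-values therefore measure only the spread between these libraries, which may be technical.

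Library totals ran from 28756305 to 79836881 counts, and 22430 genes had enough counts to be tested, among them all 8 genes described. Levels are CPM, counts relative to the library total after scaling by the TMM factors of edgeR. A call needed a Benjamini-Hochberg adjusted p of at most 0.05 in the quasi-likelihood test of edgeR and a log2 fold change of at least 1 in either direction. All 8 dermal fibroblast markers had counts in every library, with summed levels of 10788 to 26055 CPM.

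SIKE1 is a small coiled-coil protein that was found as a suppressor of IKKε and TBK1. These are kinases of innate immunity that phosphorylate the transcription factors IRF3 and IRF7 after sensors such as RIG-I, cGAS or TLR3 have met nucleic acid, and so switch on type I interferon. SIKE1 and its close relative FGFR1OP2 also belong to the STRIPAK complex, where they link SLMAP to a striatin-bound phosphatase. Imiquimod itself is a ligand of TLR7, which signals through MyD88.

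In the GENCODE vM21 annotation of GRCm38, Sike1 (ENSMUSG00000027854) runs from 102995708 to 103008459 on the plus strand of chromosome 3. Nras, Ampd1, Dennd2c, Bcas2 and Trim33 lie after it on the same strand, and 363068 bases separate the start of Sike1 from the end of Trim33. Tbk1 lies on chromosome 10 and Ikbke on chromosome 1. No exon of the 8 genes overlapped an exon of another gene on the same strand. The exons of Ikbke overlapped those of the antisense genes Gm28914 and Gm28913 by 159 and 65 bases.

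To show what separates Sike1 from its relative Fgfr1op2 in a count table, their longest annotated coding sequences, of 621 and 759 bases, were compared (transcripts of GENCODE vM21, GRCm38, Sike1 on chromosome 3 and Fgfr1op2 on chromosome 6, each read along its own coding strand). The longest run of bases that they share is printed in capitals, inside a window of 94 coding bases that starts at coding base 273 in Sike1 and 261 in Fgfr1op2.
Sike1: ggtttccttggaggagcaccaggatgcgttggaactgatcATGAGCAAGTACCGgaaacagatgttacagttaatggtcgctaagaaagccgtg
Fgfr1op2: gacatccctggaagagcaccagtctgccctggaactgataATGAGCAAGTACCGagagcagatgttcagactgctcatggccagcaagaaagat

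The shared run was 14 bases long, and 62 of the 94 bases (66.0%) were identical without gaps. Over all annotated transcripts, 1 of the 10481 stretches of 50 bases in Sike1 was also found in a transcript of another gene. This share was at most 2.35% for the other 7 genes, in Tbk1.

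Sike1 stood at 43.5, 43.2 and 47.2 CPM in VAS+H2O replicates 1 to 3, from 1793, 1555 and 3525 counts. The IMQ+H2O libraries had 47.5, 43.1 and 46.9 CPM, from 1378, 1778 and 2402 counts. In IMQ+XYF the values were 11.6, 17.7 and 12.3 CPM, from 934, 872 and 759 counts. All 6 libraries without XYF lay within 1.1-fold of each other in their own group, and the 3 libraries with XYF lay below all of them.

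Imiquimod alone left Sike1 without a detectable difference. Its mean was 44.6 ± 2.24 CPM in VAS+H2O and 45.8 ± 2.34 CPM in IMQ+H2O (SD, n = 3), a log2 fold change of 0.037 ± 0.16 (SE). The 95% interval was −0.32 to 0.39 and edgeR's adjusted p was 0.911. In IMQ+XYF the mean was 13.9 ± 3.34 CPM, 30.3% of the IMQ+H2O mean. The log2 fold change was −1.72 ± 0.16 against IMQ+H2O and −1.69 ± 0.16 against VAS+H2O. Both contrasts use the same IMQ+XYF libraries.

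**Figure D1:**
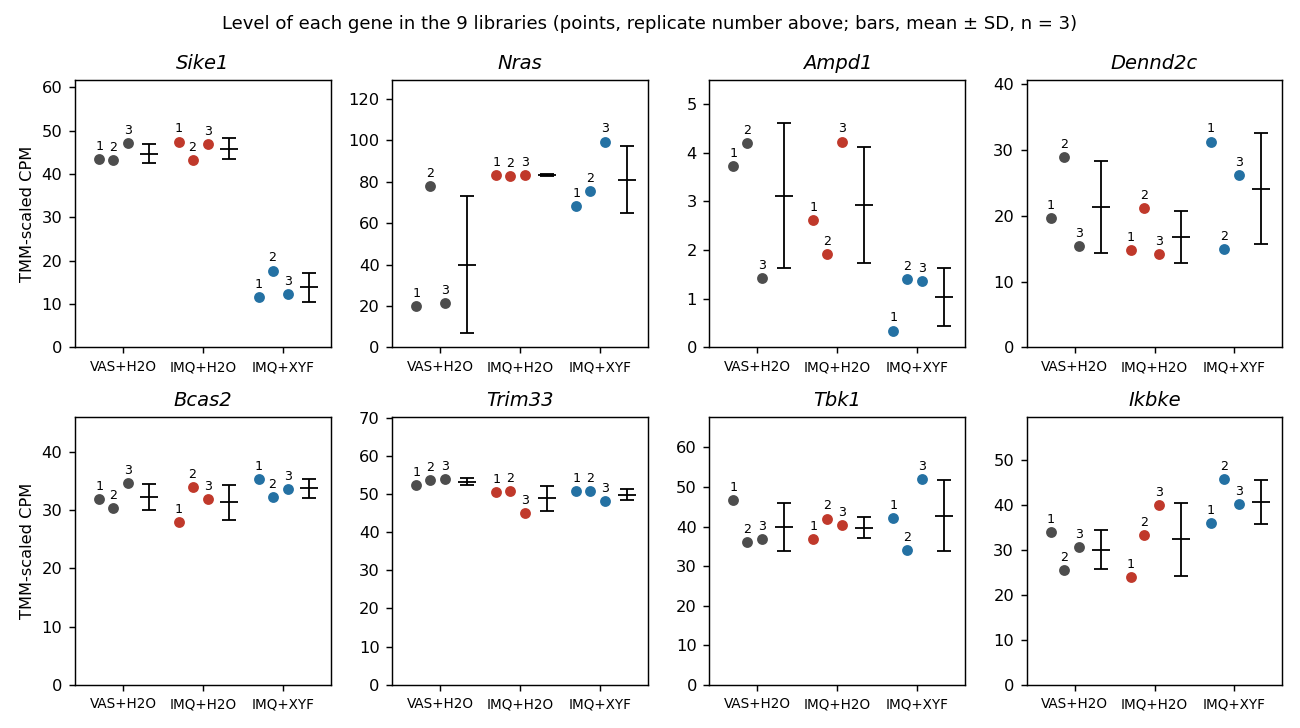
TMM-scaled CPM (vertical axes from 0, each gene on its own scale) of the 8 genes in the 3 groups. Points are libraries with their replicate number, and bars give the mean ± SD of 3 libraries. Sike1 is low in the 3 IMQ+XYF libraries, at 11.6 to 17.7 CPM, and Nras is low in VAS+H2O replicates 1 and 3, at 20.04 and 21.6 CPM.

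Between IMQ+XYF and IMQ+H2O, edgeR called 2 genes in all, Sike1 and Prr33, which is 0.00892% of those tested. Since Sike1 was chosen on this contrast, nothing is read from its place in the count. Prr33 (ENSMUSG00000043795) had between 3.69 and 6.84 CPM in the 6 libraries without XYF and 25.6, 59.1 and 35.1 CPM in those with it, the opposite direction to Sike1. Over 14 alternatives the log2 fold change of Sike1 in this contrast ran from −1.91 to −1.61. Leaving out any 1 library except IMQ+XYF replicate 2 took Sike1 out of the called genes.

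Several cell type markers moved in the same contrast as Sike1. All 19 skeletal muscle markers had a lower fitted level in IMQ+XYF than in IMQ+H2O, with summed levels of 191 to 1334 CPM against 1759 to 3629 CPM. All 11 keratinocyte markers and all 7 cartilage markers were on the higher side, with summed levels of 4053 to 15339 against 2274 to 3432 CPM and of 586 to 1759 against 328 to 486 CPM. In VAS+H2O the summed levels were 811 to 3832 CPM for muscle, 3230 to 6190 CPM for keratinocyte and 1041 to 1750 CPM for cartilage markers. These ranges overlapped those of IMQ+XYF. Gene by gene, all 19 muscle markers had a lower fitted level in IMQ+XYF than in VAS+H2O, with a median log2 fold change of −1.53. All 11 keratinocyte markers were on the higher side (median 0.95, 2 called) and all 7 cartilage markers on the lower (median −0.24). Groups did not overlap for 4, 4 and 1 of these markers. Of all tested genes, 1.20% were called and 22.1% did not overlap in this contrast. None of the marker genes was called in IMQ+XYF minus IMQ+H2O, where only 0.00892% of all tested genes were. Groups did not overlap in that contrast for 13 of 19 muscle, 6 of 11 keratinocyte and 5 of 7 cartilage markers, beside 18.0% of all tested genes. The part of these cells in the level of Sike1 was not tested. In bulk RNA, fewer cells of a type and less RNA per cell cannot be told apart.

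The genes whose profile over the 9 libraries was most like that of Sike1 were taken by the root-mean-square difference of centred log2 CPM among 13674 genes. They were Cyfip2 (0.326), Tmem70 (0.347), Zfp618 (0.352), Rtn2 (0.352) and Rcan2 (0.384), each on another chromosome than Sike1. Tmem70, which encodes a factor for assembly of the mitochondrial ATP synthase, was the tightest of them, with 15.3 to 17.2 CPM in the 6 libraries without XYF and 8.21, 8.93 and 6.85 CPM with it. Cyfip2 of the WAVE actin complex had 10.2 to 16.6 CPM in those 6 libraries and 5.05, 7.55 and 6.06 CPM in IMQ+XYF. Rtn2 and Rcan2 were lowest in IMQ+XYF replicate 1 (6.35 and 6.76 CPM) and highest in VAS+H2O replicate 2 (31.5 and 36.1 CPM). The summed muscle markers had the same lowest and highest library (191 and 3832 CPM), seen after the fact and not tested. Cyfip2, Tmem70 and Zfp618 were highest in other libraries. Among the neighbours and kinases the nearest was Ampd1 at 0.660, and the farthest was Nras at 1.36.

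NRAS is a small GTPase that passes signals from growth factor receptors to the RAF kinases. Nras stood at 20.04, 78.0 and 21.6 CPM in VAS+H2O replicates 1 to 3. It stood at 83.5, 83.0 and 83.5 CPM in IMQ+H2O and at 68.2, 75.5 and 99.4 CPM in IMQ+XYF. VAS+H2O replicates 1 and 3 were thus low and the other 7 libraries high, and VAS+H2O replicate 2 sat with the imiquimod libraries.

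Within VAS+H2O, Nras differed 3.89-fold between its highest and lowest library, a coefficient of variation of 82.9%. In IMQ+H2O the coefficient of variation was 0.350%, the smallest of any of the 8 genes in any group. The log2 fold change was 1.07 ± 0.47 (SE) for IMQ+H2O minus VAS+H2O, 1.03 ± 0.47 for IMQ+XYF minus VAS+H2O and −0.04 ± 0.46 for IMQ+XYF minus IMQ+H2O. The groups did not overlap for Nras in IMQ+H2O minus VAS+H2O, as for 31.5% of all tested genes.

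The related gene Hras, chosen here after its values were seen, had no such split in VAS+H2O. It lay between 29.8 and 33.2 CPM in the 3 VAS+H2O libraries, and its mean in IMQ+H2O was 32.4 ± 2.23 CPM.

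**Figure D2:**
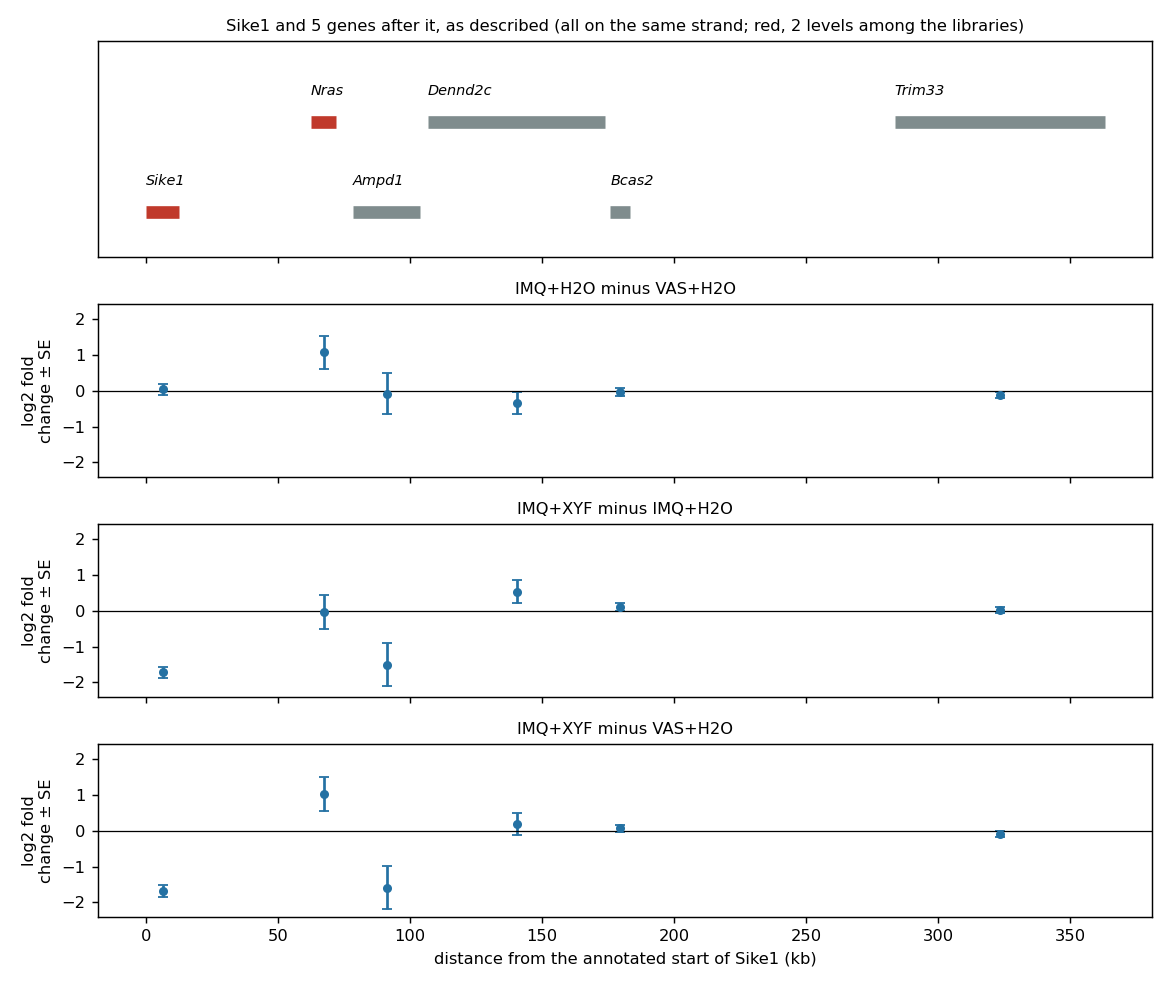
Sike1 and the 5 chromosome 3 genes described with it, by distance from the Sike1 start (kb), with the edgeR log2 fold change ± SE of each in the 3 contrasts below. Sike1 is at −1.72 in IMQ+XYF minus IMQ+H2O and Nras at 1.07 in IMQ+H2O minus VAS+H2O, while Bcas2 and Trim33 stay between −0.13 and 0.11 in all contrasts.

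Whether other genes split the libraries in this way was counted by a single rule. A gene was called two-level where its 9 libraries fell into a low and a high level of at least 2 libraries each, with a log2 gap of at least 1 between the levels that was at least 2 times the wider range within a level. Of 15049 genes whose scaled counts averaged 100 or more, 89 (0.591%) met it, 77 of them protein-coding. In 74 of the 89 the low libraries did not coincide with a group, in 10 they were the 3 VAS+H2O libraries, and in 4 the 3 VAS+H2O libraries were the high ones. Among these 89 genes, Sike1 was the only one low in just the 3 IMQ+XYF libraries, and none was high in just those. Genes that miss the rule, such as Prr33 and Ampd1, can still keep the IMQ+XYF libraries apart from all others. This count comes from the values on which Sike1 was chosen.

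Sike1 had a gap of 1.28 against a wider range of 0.61, a ratio of 2.11 that lay just inside the limit. For Nras the gap was 1.66 and the range 0.54, a ratio of 3.05. Clec4e, a pattern recognition receptor of myeloid cells, was the only other two-level gene low in just VAS+H2O replicates 1 and 3. The remaining 6 genes were not two-level, and their widest gaps ran from 0.070 in Bcas2 to 0.51 in Ampd1.

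Neighbouring two-level genes within 100 kb formed 3 pairs in the genome. The keratin genes Krt33a and Krt31 shared their low libraries, and so did the formyl peptide receptors Fpr1 and Fpr2. Sike1 and Nras, 49.8 kb apart, did not share a low library. Nras was two-level only with both of its low libraries present, since a level needs 2 of them; without VAS+H2O replicate 1 or replicate 3, Sike1 alone of the 8 genes remained two-level, a check chosen after the data were seen.

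**Figure D3:**
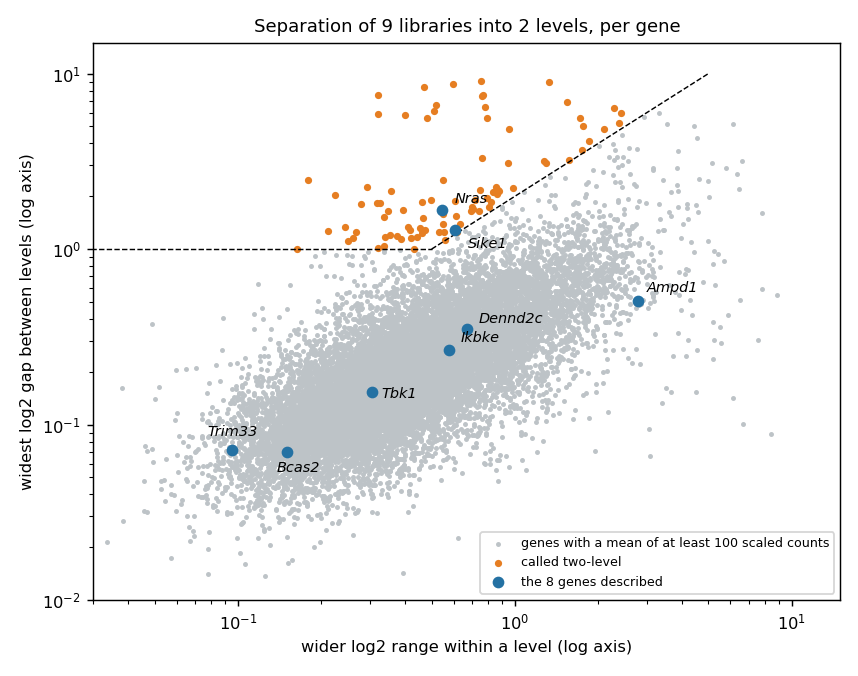
Widest log2 gap between 2 levels of libraries against the wider log2 range within a level, both on log axes, for 15049 genes (grey), with the 89 two-level genes in orange and the 8 genes described in blue. The dashed line is the limit, which Sike1 and Nras pass while the other 6 genes lie below it.

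Ampd1 encodes the AMP deaminase of skeletal muscle and was the lowest of the 8 genes. It stood at 3.74, 4.20 and 1.42 CPM in VAS+H2O, 2.62, 1.92 and 4.23 CPM in IMQ+H2O, and 0.348, 1.40 and 1.36 CPM in IMQ+XYF. The IMQ+XYF libraries lay below all 6 others, with IMQ+XYF replicate 1 lowest. The fitted log2 fold change was −1.51 ± 0.59 against IMQ+H2O (adjusted p 0.396 in edgeR) and −1.59 ± 0.59 against VAS+H2O (adjusted p 0.199), so neither passed. The groups did not overlap in either contrast, as for 18.0% and 22.1% of tested genes. Between IMQ+H2O and VAS+H2O the log2 fold change was −0.082 with a 95% interval of −1.4 to 1.2.

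The summed skeletal muscle markers were also lower in IMQ+XYF than in IMQ+H2O, while the sums of VAS+H2O overlapped those of IMQ+XYF. Gene by gene, all 19 markers had a lower fitted level in IMQ+XYF than in VAS+H2O as well, with a median log2 fold change of −1.53. Their part in the level of Ampd1 was not tested. For every 1000 summed CPM of the 19 muscle markers, Ampd1 had 1.49, 1.10 and 1.75 CPM in VAS+H2O, 0.790, 1.09 and 1.17 CPM in IMQ+H2O, and 1.82, 1.05 and 1.56 CPM in IMQ+XYF. These ratios overlapped between all 3 groups. The median log2 fold change of the markers between IMQ+XYF and IMQ+H2O was −1.68, beside −1.51 for Ampd1 and 0.0054 for all tested genes.

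**Figure D4:**
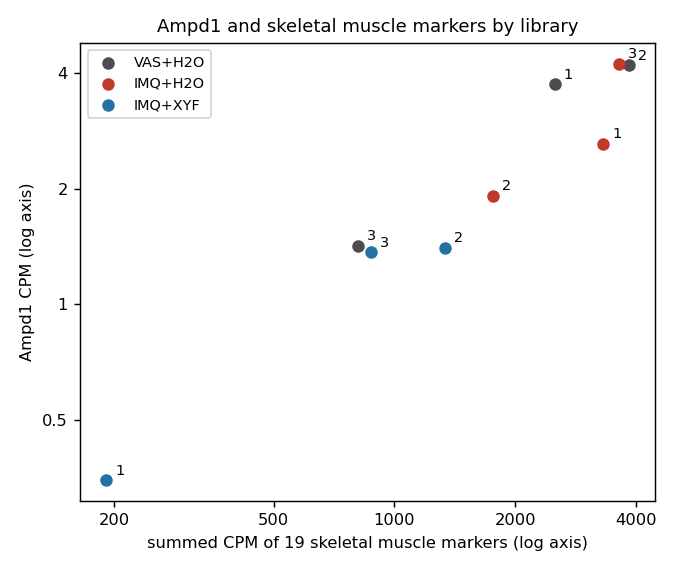
Ampd1 CPM against the summed CPM of 19 skeletal muscle markers in each of the 9 libraries, both on log axes, with replicate numbers beside the points. IMQ+XYF replicate 1 is lowest on both axes, at 0.348 and 191 CPM, and IMQ+H2O replicate 3 and VAS+H2O replicate 2 are highest on both.

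Dennd2c encodes a guanine nucleotide exchange factor for Rab GTPases. Its levels were 19.6, 29.0 and 15.4 CPM in VAS+H2O, 14.8, 21.3 and 14.3 CPM in IMQ+H2O, and 31.3, 14.9 and 26.2 CPM in IMQ+XYF. All 3 groups overlapped, and no contrast passed the test (log2 fold changes −0.34, 0.53 and 0.18, adjusted p from 0.528 to 0.825 in edgeR). IMQ+XYF replicate 1, the library with the highest Dennd2c, also had the most keratinocyte marker CPM (15339), and the part of these cells was not tested.

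Bcas2, a subunit of the spliceosomal PRP19 complex, and Trim33, a ubiquitin ligase that acts on SMAD4, were the most even of the neighbours. Bcas2 ran from 28.0 to 35.3 CPM over the 9 libraries, with log2 fold changes of −0.045, 0.11 and 0.062 (SE 0.10 or 0.11). Trim33 ran from 52.2 to 53.9 CPM in VAS+H2O, 45.1 to 50.9 CPM in IMQ+H2O and 48.0 to 50.7 CPM in IMQ+XYF. VAS+H2O therefore lay above both imiquimod groups, by a small margin that did not pass the test (−0.13 ± 0.083, adjusted p 0.413, and −0.096 ± 0.082, adjusted p 0.604). Groups did not overlap for 31.5% and 22.1% of all tested genes in these contrasts. The 95% intervals of both genes stayed within −0.32 and 0.35 in all 3 contrasts, well inside a change of 1.

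Within 1 Mb on either side of Sike1, 27 protein-coding genes start, and 22 of them were tested. Apart from Sike1, 0 of the other 21 were called in IMQ+H2O minus VAS+H2O, 0 in IMQ+XYF minus IMQ+H2O and 0 in IMQ+XYF minus VAS+H2O. Of all tested genes, 0.994%, 0.00892% and 1.20% were called in these contrasts. Groups did not overlap for 7, 6 and 7 of the 21, beside 31.5%, 18.0% and 22.1% of all tested genes. Their median log2 fold changes were −0.11, 0.0093 and −0.12, beside −0.023, 0.0054 and −0.024 over all tested genes.

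TBK1 is a kinase of most cell types and a partner of SIKE1. Tbk1 stood at 46.8, 36.0 and 36.8 CPM in VAS+H2O, 36.8, 42.0 and 40.3 CPM in IMQ+H2O, and 42.1, 34.1 and 52.0 CPM in IMQ+XYF. The 3 groups overlapped fully, and the lowest and highest library both belonged to IMQ+XYF. Log2 fold changes were −0.0056 for IMQ+H2O minus VAS+H2O, 0.11 for IMQ+XYF minus IMQ+H2O and 0.10 for IMQ+XYF minus VAS+H2O, with 95% intervals of −0.38 to 0.37, −0.27 to 0.48 and −0.28 to 0.48. The sign of the value nearest 0 turned under 8 of 14 alternatives.

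Ikbke, which encodes the inducible kinase IKKε, stood at 34.0, 25.4 and 30.6 CPM in VAS+H2O, 23.8, 33.3 and 39.9 CPM in IMQ+H2O, and 35.9, 45.7 and 40.04 CPM in IMQ+XYF. The 3 IMQ+XYF libraries lay above the 3 VAS+H2O libraries, and IMQ+H2O overlapped both. Between IMQ+XYF and VAS+H2O, 22.1% of all tested genes did not overlap. Against VAS+H2O the log2 fold change of IMQ+XYF was 0.43 ± 0.19 with a 95% interval of −0.0069 to 0.88 and an adjusted p of 0.279 in edgeR. It was 0.33 ± 0.19 against IMQ+H2O (adjusted p 0.523) and 0.11 ± 0.19 for IMQ+H2O minus VAS+H2O (adjusted p 0.785). Myeloid and lymphoid cells are known to carry Ikbke. Summed macrophage and monocyte markers ran from 542 to 945, 710 to 1010 and 640 to 710 CPM in VAS+H2O, IMQ+H2O and IMQ+XYF, and T cell markers from 194 to 323, 212 to 253 and 158 to 293 CPM. Neutrophil markers were at 7.69 to 26.4, 209 to 655 and 173 to 480 CPM, with medians of 14.2, 250.4 and 304. Dendritic cell markers were at 20.8 to 34.3, 29.3 to 49.9 and 24.6 to 40.5 CPM, with medians of 29.6, 35.8 and 39.4. The medians of these last lists had the same order of groups as the mean of Ikbke. Those of macrophage and monocyte markers (555, 891 and 679 CPM) and of T cell markers (273, 217 and 254 CPM) did not. Between IMQ+XYF and IMQ+H2O, 2 of 7 tested neutrophil markers had a fitted value above 0, with a median of −0.17. Among dendritic cell markers it was 3 of 6, with a median of −0.16. The part of the cells in the level of Ikbke was not tested. Strand use in the counting is not given in the sources used here, so over their shared bases reads of Ikbke and its antisense genes cannot be told apart.

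**Figure D5:**
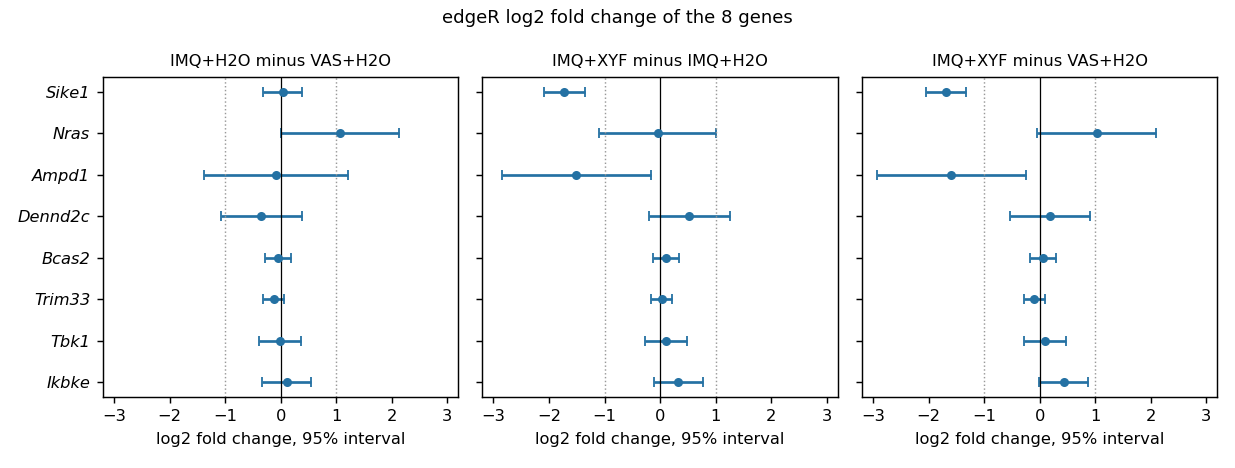
edgeR log2 fold change with its 95% interval (horizontal axis) for the 8 genes in the 3 contrasts, with dotted lines at −1 and 1. The intervals of Bcas2, Trim33, Tbk1 and Ikbke stay between the dotted lines in all contrasts, and those of Nras and Ampd1 are wide.

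Levels were compared between genes per kilobase of annotated exon, within each group. In VAS+H2O, Tbk1 had 10.2 ± 1.54 CPM per kb, Nras 7.48 ± 6.20, Bcas2 7.35 ± 0.505, Trim33 5.43 ± 0.0917, Sike1 4.34 ± 0.218, Ikbke 3.33 ± 0.481, Dennd2c 3.11 ± 1.02 and Ampd1 0.879 ± 0.419. Nras and Bcas2 in that order, and Ikbke and Dennd2c, did not differ beyond their SD. In IMQ+H2O, Nras was above Tbk1, with 15.6 ± 0.0547 against 10.2 ± 0.678 CPM per kb, and Sike1 at 4.45 ± 0.227 and Ikbke at 3.58 ± 0.894 differed by less than the SD of Ikbke. In IMQ+XYF, Ikbke had 4.50 ± 0.545 and Sike1 1.35 ± 0.325 CPM per kb, while Tbk1 stood at 10.9 ± 2.30. Tbk1 was above Ikbke and Sike1 per length in all 3 groups, and Sike1 was below Ikbke only in IMQ+XYF, the group on which it was chosen. The length counts the exons of all annotated transcripts, 10296 bases in Sike1 and 3910 in Tbk1, and which of them the dermis uses was not tested. The order of these 2 genes depends on it. Without division by length, Sike1 was above Tbk1 in VAS+H2O (44.6 against 39.9 CPM) and in IMQ+H2O (45.8 against 39.7 CPM).

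The rest of the pathway was read from gene lists by function. Of all tested genes, 0.994% were called in IMQ+H2O minus VAS+H2O, 0.00892% in IMQ+XYF minus IMQ+H2O and 1.20% in IMQ+XYF minus VAS+H2O. At such shares, 0 calls in a short list does not set it apart from all tested genes. Among adaptors and partners of TBK1 and IKKε, 0 of 9 tested genes were called in any contrast, with median log2 fold changes of −0.065, −0.13 and −0.060. Tank, an adaptor of both kinases, had 40.5 ± 8.75, 37.5 ± 4.23 and 39.9 ± 1.53 CPM in VAS+H2O, IMQ+H2O and IMQ+XYF. For the adaptor Azi2 log2 fold changes were 0.34, −0.32 and 0.012, and for Traf3, the ubiquitin ligase upstream of the kinases, −0.12, −0.26 and −0.38. Tbkbp1, a further TBK1 adaptor, was at 0.38 ± 0.16 in IMQ+H2O minus VAS+H2O and −0.44 ± 0.16 in IMQ+XYF minus IMQ+H2O, contrasts that share the IMQ+H2O libraries (adjusted p 0.219 and 0.379 in edgeR). The most abundant members of the list, Ddx3x and Sqstm1, were at 0.25 and −0.13 in IMQ+XYF minus IMQ+H2O.

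Sensors upstream of the kinases gave 0 calls among 12 genes in each contrast, with medians of −0.21, −0.14 and −0.27. The RNA sensors Ddx58 and Ifih1 were the most abundant, and their log2 fold changes between IMQ+XYF and IMQ+H2O were −0.29 and −0.061. Tlr4, named here after its values were seen, was itself two-level, with 22.2, 4.86 and 3.18 CPM in VAS+H2O and 18.1 to 26.0 CPM in the 6 imiquimod libraries. Its low libraries were VAS+H2O replicates 2 and 3, so it shared 1 low library with Nras.

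Downstream and parallel factors, which included Irf3, Irf7, the IKK subunits, NF-κB genes, Tlr7 and Myd88, gave 0 calls among 12 genes in each contrast. Irf3, the substrate of both kinases, had 39.1 ± 3.86, 39.0 ± 1.96 and 39.6 ± 1.07 CPM in the 3 groups. Nfkbia and Irf1, the most abundant of the list, were at 0.44 and 0.044 in IMQ+XYF minus IMQ+H2O, and the list median was 0.050.

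Of 14 IRF3 and interferon target genes, 13 were tested. Ccl5, a T cell chemokine, was called higher in IMQ+H2O than in VAS+H2O (log2 fold change 2.93 ± 0.54, adjusted p 0.0430 in edgeR), and Ifit2, an antiviral protein, was called lower in IMQ+XYF than in VAS+H2O (−1.77 ± 0.34, adjusted p 0.0441). Between IMQ+XYF and IMQ+H2O none of the 13 was called. Their fitted values were all below 0, from −1.03 in Ccl5 to −0.082 in Cxcl10 with a median of −0.53, and groups did not overlap for 8 of them, beside 18.0% of all tested genes. The medians in the other contrasts were −0.67 for IMQ+H2O minus VAS+H2O and −1.47 for IMQ+XYF minus VAS+H2O. The macrophage and monocyte markers were also all below 0 between IMQ+XYF and IMQ+H2O, 9 of 9 with a median of −0.42, and the part of these cells was not tested.

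The STRIPAK complex, the other known setting of SIKE1, gave 0 calls among 18 genes in each contrast, with medians of −0.079, 0.14 and 0.063. Slmap was at −0.13, 0.011 and −0.12, and the phosphatase genes Ppp2ca and Ppp2r1a, the most abundant, were both at 0.15 in IMQ+XYF minus IMQ+H2O. Fgfr1op2, the relative of Sike1, had 80.5, 79.4 and 76.1 CPM in VAS+H2O, 40.2, 81.0 and 80.0 CPM in IMQ+H2O, and 88.8, 79.5 and 88.6 CPM in IMQ+XYF. A single library, IMQ+H2O replicate 1, stood apart, and the IMQ+XYF libraries, low in Sike1, were not low in Fgfr1op2. Its log2 fold change between IMQ+XYF and IMQ+H2O was 0.35 ± 0.23 (adjusted p 0.552 in edgeR).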

How the data were processed

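The authors deposited 1 table of read counts per Ensembl gene, whole numbers without normalization. According to the study's methods, reads were aligned to GRCm38 with STAR, with StringTie and DESeq2 in later steps. The submitters' processing notes instead name FastQC, STAR 2.5, Cuffnorm and DESeq 1.22.1. The tool that counted the reads and its handling of strand and multiple alignments are not given in the sources used here. Low-count genes were filtered by filterByExpr, libraries were scaled by TMM, and the 9 libraries entered 1 quasi-likelihood fit in edgeR 4.0.16 (R 4.3.3) with a coefficient per group. Adjusted p-values are Benjamini-Hochberg values over the 22430 genes tested. The fit was also run on counts simulated from its own gene means and spread. Such counts hold no built-in two-level genes, so they cannot show how the fit behaves on those or how libraries relate to mice. Standard errors were derived from the F statistic and the size of each log2 fold change. A count of 0 allows up to 3 counts, or 0.0373 to 0.103 CPM, which covers counting error only. DESeq2 1.42.0, other scaling, no filter, fewer libraries and a replicate block were alternatives. The 8 genes, the lists and the rules were chosen with earlier results of these data known. By rule, the text names all 8 genes, genes called between IMQ+XYF and IMQ+H2O, the 5 genes most like Sike1, and of each pathway list the called genes or the 2 most abundant, with Tank, Azi2, Tbkbp1, Irf3, Traf3, Fgfr1op2 and Slmap. All 143 listed symbols were found. Coordinates are 1-based.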

Additional observations from a re-analysis of the deposited data

How the results depend on the processing

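Over 14 alternatives, 302 of 336 fold changes of the 8 genes kept direction and side of the threshold, and 22 turned sign, all with an absolute log2 value of at most 0.18 in the reported fit. Without 1 library, those that turned ran, for IMQ+H2O minus VAS+H2O, from −0.44 to 0.19 in Ampd1, −0.11 to 0.028 in Bcas2, −0.077 to 0.12 in Tbk1 and −0.054 to 0.29 in Ikbke. For IMQ+XYF minus IMQ+H2O they ran from −0.21 to 0.072 in Nras, −0.0051 to 0.063 in Trim33 and −0.057 to 0.27 in Tbk1, and for IMQ+XYF minus VAS+H2O from −0.049 to 0.48 in Dennd2c and −0.065 to 0.29 in Tbk1. Tbk1 in IMQ+H2O minus VAS+H2O was also 0.015 with DESeq2, 0.015 with its size factors, 0.0022 with the replicate block and 0.020 in a fit of 6 libraries.

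Genes called in IMQ+H2O minus VAS+H2O numbered 223, 945 with DESeq2, 86 with the replicate block, 496 in a fit of 6 libraries and 25 to 455 without 1 library. In IMQ+XYF minus IMQ+H2O they numbered 2, 223 with DESeq2, 0 with the replicate block (2212 at an unadjusted p under 0.05), 1 in a fit of 6 libraries and 0 to 4 without 1 library. In IMQ+XYF minus VAS+H2O they numbered 270, 701 with DESeq2, 54 with the replicate block, 33 in a fit of 6 libraries and 12 to 592 without 1 library. Of the 8 genes, 0 to 1, 0 to 1 and 1 to 2 were called in these contrasts without 1 library, and in IMQ+XYF minus IMQ+H2O the call of Sike1 was lost with the replicate block (−1.74, 0 called) and in the fit of 6 libraries (−1.72, 0 called). Nras was the gene added without VAS+H2O replicate 2, the 1 high library of that group, so that this call follows from the split itself. The cause of the other shifts was not tested.

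The replicate block pairs libraries by number. Of 9 same-numbered pairs, 1 had a correlation of deviations over 0.1 (range −0.18 to 0.12), so the numbers were not taken to pair the libraries. Two-level genes numbered 130 at a gap of 0.58 (where Tmem70 joined Sike1 as low in just IMQ+XYF) and 122 at a ratio of 1.5 (where 1 gene was high in just IMQ+XYF). They numbered 135 at a mean of 20 scaled counts and 94 to 111 without 1 library, with 1 to 2 of the 8 genes among them. Ampd1, at 0.348 to 4.23 CPM, is the gene with the least depth here, and its 95% interval between IMQ+H2O and VAS+H2O reached from −1.4 to 1.2, so smaller changes were not detectable.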
